A study of Mus musculus with 28 samples.

Results

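The 9 genes described here encode membrane proteins known to be cut from the cell surface by the proteases ADAM17 or ADAM10. They are Tnf, its receptors Tnfrsf1a and Tnfrsf1b, the interleukin-6 receptor chain Il6ra, the adhesion receptor Cd44, the ligands Kitl and Cx3cl1, the receptor kinase Mertk and the receptor Notch1. They were chosen by name for this shared property, with earlier results of these data known. All 9 were found among the 12315 genes of the whole kidney table and among the 10523 genes of the sorted macrophage table. RNA was sequenced from female C57BL/6 littermates aged 7 to 9 months. The 4 genotypes were Fcgr2b-/-Rhbdf2-/- (called double mutant here), Fcgr2b-/-, Rhbdf2-/- and wild type (WT), with 4 libraries each in whole kidney and 3 each in macrophages. Rhbdf2 encodes iRhom2, and Fcgr2b encodes the inhibitory receptor for IgG. The macrophages were sorted from digested kidneys as CD45+, high in F4/80, CD11b+ and negative for Ly6G and Ly6C.

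Shedding releases the outer part of a membrane protein. TNF is made as a membrane-bound trimer that ADAM17 cuts free, and the same enzyme removes both TNF receptors and the interleukin-6 receptor from cells, which ends signalling in that cell or makes a soluble receptor. iRhom2 carries ADAM17 from the endoplasmic reticulum to the surface and is the main carrier in myeloid cells. ADAM10 makes the cut in Notch receptors that follows ligand binding and also releases several of the other proteins described here. In lupus nephritis, macrophages entering and living in the kidney are known sources of TNF. RNA levels, as measured here, give transcript amounts and not the amount of protein that was cut.

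Reads in the listed genes numbered 29015802 to 41612967 per kidney library and 30853814 to 34872845 per macrophage library. No label ties a library to a mouse of its own. The p-values therefore weigh group differences against the spread between these libraries, whatever share of that is technical. That spread need not be the spread between mice. The lane was a different one for each kidney genotype, which means that effects of the 2 cannot be told apart. Reads of the targeted genes were present throughout. Kidney Rhbdf2 was at 9.29 to 19.7 CPM (read counts scaled to library size) in double mutants, 25.0 to 37.1 CPM in Fcgr2b-/-, 10.8 to 12.3 CPM in Rhbdf2-/- and 12.9 CPM in each WT library. Macrophage Fcgr2b was at 455 to 550 CPM in double mutants, 256 to 382 CPM in Fcgr2b-/-, 612 to 715 CPM in Rhbdf2-/- and 539 to 715 CPM in WT. The values count whole genes, and the sources used here do not say which part of each gene was deleted, so they do not check the labels. One double-mutant kidney library, iR2ko_65, stood apart from the other 3 and had the macrophage markers at 916 CPM in sum, against 2819 to 9206 CPM in the other 3. Results that rest on it are given with and without it.

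Tnf, Tnfrsf1b and Cd44 were the members called higher in double-mutant than in WT kidney, and the 100 bases before their start sites are shown for that reason. These 3 RefSeq starts coincide with the gene starts in the deposited tables. The sequences are from RefSeq on GRCm38.p6, all from the minus strand, and capitals mark TATAAA and GGGCGG on either strand (CCGCCC is GGGCGG on the other strand).
Tnf, chr17:35202008-35202107: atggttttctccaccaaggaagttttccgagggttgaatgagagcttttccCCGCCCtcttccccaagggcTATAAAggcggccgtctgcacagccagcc
Tnfrsf1b, chr4:145246871-145246970: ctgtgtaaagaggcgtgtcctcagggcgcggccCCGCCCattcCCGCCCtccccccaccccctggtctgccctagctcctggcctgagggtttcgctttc
Cd44, chr2:102901666-102901765: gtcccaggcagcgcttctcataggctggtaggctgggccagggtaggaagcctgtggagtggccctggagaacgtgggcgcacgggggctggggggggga
The Tnf promoter holds a TATAAA 29 to 24 bases before the start, the Tnfrsf1b promoter holds 2 copies of GGGCGG, and the Cd44 stretch holds neither. Over the 250 bases before the start, TATAAA was found for Tnf, Kitl and Cx3cl1, against 12.4% of 32851 promoters of the same length. GGGCGG was found for 6 of the 9 members, against 32.7% of all promoters. The NF-kB motif was found for Kitl alone among the 9, against 7.25% of all promoters, and TGANTCA for none, against 6.75%. These matches describe the letters in this window only. The RefSeq start lies inside the deposited gene for Tnfrsf1a, Kitl, Cx3cl1 and Notch1, farthest for Notch1, whose window ends at 26504072 while the deposited gene starts at 26516663 on the minus strand.

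Levels per kilobase of exon allow the genes to be ranked against each other. In WT kidney, Tnfrsf1a stood highest at 31.7 CPM per kb, ahead of Cx3cl1 at 22.7, Mertk at 16.8 and Kitl at 8.40 CPM per kb. Tnfrsf1b had 2.85, Notch1 2.17 and Il6ra 1.87 CPM per kb, and the WT libraries of Notch1 and Il6ra overlapped. Cd44 at 0.509 and Tnf at 0.198 CPM per kb were the 2 lowest. In WT macrophages, whose table was normalized separately, the 2 TNF receptors led, with Tnfrsf1a at 92.4 and Tnfrsf1b at 80.8 CPM per kb. Cd44 followed at 28.9, Tnf at 14.2 and Il6ra at 11.9 CPM per kb, the libraries of Tnf and Il6ra overlapping. Mertk had 6.73, Kitl 4.71, Cx3cl1 2.61 and Notch1 1.39 CPM per kb, and each of these overlapped its neighbour in the order. The epithelial and endothelial ligand Cx3cl1 thus ranked second in kidney and eighth in macrophages.

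**Figure D1:**
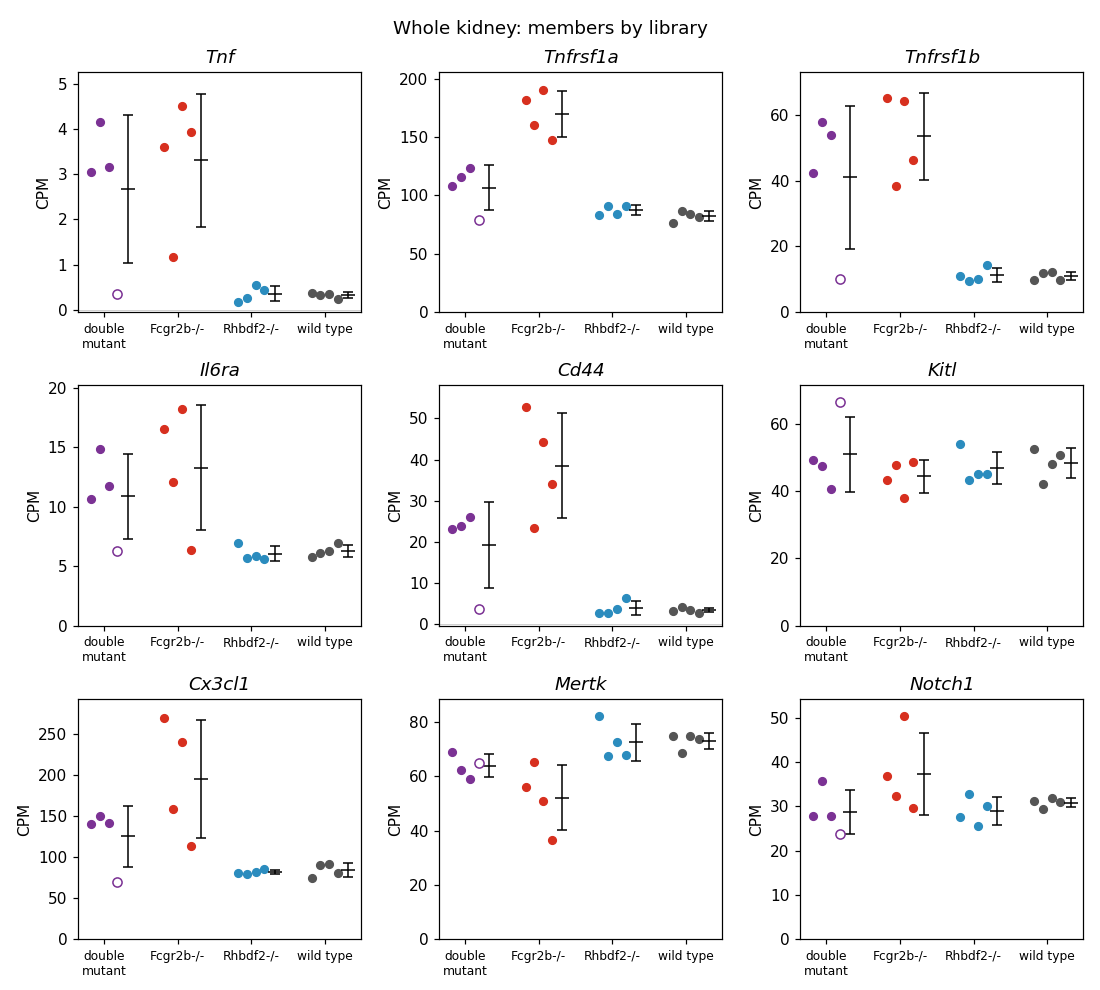
CPM of each of the 9 genes in the 16 whole kidney libraries, by genotype. Points are libraries, the open point is double-mutant library iR2ko_65, and bars give the mean and SD of each group; for Tnf, Tnfrsf1a, Tnfrsf1b, Cd44 and Cx3cl1 all 4 Fcgr2b-/- libraries lie above all 4 WT libraries.

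In Fcgr2b-/- kidney, 6 of the 9 genes rose against WT and 1 fell. Tnf, both TNF receptors, Il6ra, Cd44 and Cx3cl1 were higher, Mertk was lower, and Kitl and Notch1 did not pass the test. The test was limma on log2(CPM + 1) over all genes with Benjamini-Hochberg adjustment, called at an adjusted p below 0.05. Of all 12315 genes, 60.3% were called in this comparison, 29.5% higher and 30.8% lower, so a call alone sets no gene apart here. The median log2 change was 1.03 over the 9 genes and -0.01 over all genes. In whole tissue, fewer cells of a type and less RNA per cell cannot be told apart.

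Tnf, the ligand, was scarce in kidney. It had 3.61, 1.16, 4.51 and 3.93 CPM in Fcgr2b-/- libraries FcR2bko_21, FcR2bko_398, FcR2bko_591 and FcR2bko_594, against 0.382, 0.332, 0.343 and 0.239 CPM in WT libraries WT_346, WT_356, WT_388 and WT_550. The WT values rest on 7 to 12 reads each. All 4 Fcgr2b-/- libraries were higher than every WT library, and FcR2bko_398 was the lowest of them. The log2 change was 1.62 ± 0.36 (SE; limma adjusted p = 0.00137). The added 1 CPM understates a change at so low a level, and the authors' deposited table gives a log2 fold change of 3.45.

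Tnfrsf1a, the death-domain receptor present on most cells, had 182, 160.0, 190.4 and 148 CPM in Fcgr2b-/- libraries in the same order, against 76.7, 86.8, 84.3 and 81.1 CPM in WT. The groups lay far apart, with a log2 change of 1.03 ± 0.11 (limma adjusted p = 3.89e-06). Tnfrsf1b, the second TNF receptor, found mainly on leukocytes and endothelium, had 65.1, 38.3, 64.3 and 46.4 CPM in Fcgr2b-/- libraries against 9.88, 11.8, 12.1 and 9.76 CPM in WT. It rose by 2.17 ± 0.39 on the log2 scale (limma adjusted p = 0.000258), with no overlap between groups. Across the 9 genes, 5 were entirely higher and 1 entirely lower in Fcgr2b-/- kidney, against 25.3% and 26.4% of all genes.

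Il6ra, which binds interleukin-6 and when shed lets it act on cells that lack the receptor, had 16.5, 12.1, 18.2 and 6.38 CPM in Fcgr2b-/- libraries against 5.75, 6.14, 6.24 and 6.93 CPM in WT. The groups overlapped at FcR2bko_594, which lay among the WT values, and the log2 change was 0.89 ± 0.26 (limma adjusted p = 0.00837). Cd44, the hyaluronan receptor, had 52.7, 23.3, 44.2 and 34.0 CPM in Fcgr2b-/- libraries against 3.30, 4.19, 3.46 and 2.83 CPM in WT. Its log2 change of 3.10 ± 0.45 was the largest of the 9 in this comparison (limma adjusted p = 4.01e-05). Cx3cl1, the membrane-bound chemokine fractalkine, had 269, 159, 240.2 and 114 CPM in Fcgr2b-/- libraries against 74.3, 90.0, 91.9 and 80.4 CPM in WT. It rose by 1.13 ± 0.25 on the log2 scale (limma adjusted p = 0.00134), with FcR2bko_594 nearest to WT.

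Mertk, the receptor kinase with which phagocytes take up dying cells, had 55.9, 65.1, 50.7 and 36.6 CPM in Fcgr2b-/- libraries against 74.6, 68.6, 75.0 and 73.9 CPM in WT. It changed by -0.51 ± 0.13 on the log2 scale (limma adjusted p = 0.00315), with every Fcgr2b-/- library below every WT library. Scaling to library totals, which moved the median of all genes by 0.20, gave Mertk -0.30 and ended its call. Kitl, the membrane form of stem cell factor, averaged 44.4 ± 4.91 CPM in Fcgr2b-/- and 48.4 ± 4.48 CPM in WT (SD, n = 4 each; limma adjusted p = 0.418). Notch1 averaged 37.3 ± 9.19 CPM in Fcgr2b-/- and 30.9 ± 1.08 CPM in WT (SD, n = 4 each; limma adjusted p = 0.160), and it passed with library totals (log2 change 0.45, adjusted p = 0.0455).

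The same kidneys differed in cell-type markers. All 20 macrophage markers rose in Fcgr2b-/- kidney, and their summed level was 2123 to 5481 CPM, against 593 to 753 CPM in WT. Of 15 tubule markers 3 (Krt8, Krt18 and Epcam) rose and 10 fell, with sums of 11669 to 13737 CPM in Fcgr2b-/- and 27667 to 30332 CPM in WT. Of 5 measured monocyte and neutrophil markers 4 rose, with sums of 59.4 to 127 CPM in Fcgr2b-/- and 20.7 to 26.5 CPM in WT. Of 8 measured markers of T, NK and B cells 0 passed, or 3 rose when iR2ko_65 was left out of the shared fit, with sums of 10.5 to 739 CPM in Fcgr2b-/- and 16.7 to 34.9 CPM in WT. Of 10 endothelial and podocyte markers Cdh5, Eng and Pecam1 rose and Kdr and Nphs1 fell, with sums of 781 to 1181 CPM in Fcgr2b-/- and 1009.8 to 1051 CPM in WT. The part of these shifts in the members' values was not tested.

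Loss of Rhbdf2 on the Fcgr2b-/- background was addressed by setting double-mutant against Fcgr2b-/- kidney. Tnfrsf1a and Cd44 fell, and the other 7 genes did not pass, while 45.3% of all genes were called and 22.8% were lower. The median log2 change was -0.35 over the 9 genes and -0.00418 over all genes. Without iR2ko_65 the middle value of the 9 genes was that of Tnfrsf1b, at -0.04, so the lower median rests on that library. Tnfrsf1a had 108, 115, 123 and 79.1 CPM in double-mutant libraries iR2ko_348, iR2ko_370, iR2ko_367 and iR2ko_65, all below the 148 CPM of the lowest Fcgr2b-/- library. It changed by -0.68 ± 0.11 (limma adjusted p = 0.000283), and by -0.55 ± 0.08 without iR2ko_65 (adjusted p = 0.000237), where it was the 1 member called lower, against 20.1% of all genes.

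Cd44 had 23.1, 23.9, 26.1 and 3.70 CPM in the double mutants, the first 3 at the level of Fcgr2b-/- library FcR2bko_398 and the last at the WT level. It changed by -1.19 ± 0.45 against Fcgr2b-/- (limma adjusted p = 0.0417), but by -0.58 ± 0.25 without iR2ko_65 (adjusted p = 0.0851). The call was also lost without FcR2bko_21, FcR2bko_591, FcR2bko_594, iR2ko_352, WT_346, WT_388 or WT_550, at adjusted p from 0.0508 to 0.108, with the deposited log2 values (0.0504) and with only the 2 groups in the fit (0.135). In the authors' deposited table Cd44 had an FDR of 0.0767 in this comparison and Cx3cl1 one of 0.0470, so that table calls Tnfrsf1a and Cx3cl1.

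For Tnf, Tnfrsf1b, Il6ra and Cx3cl1 the double-mutant values split in the same way. Tnf had 3.05, 4.16 and 3.16 CPM in the first 3 double-mutant libraries and 0.347 CPM in iR2ko_65, and against Fcgr2b-/- it changed by -0.30 ± 0.36 with it and 0.13 ± 0.26 without it. Tnfrsf1b had 42.4, 57.8 and 53.9 CPM, and 10.0 CPM in iR2ko_65, with changes of -0.59 ± 0.39 and, without that library, -0.04 ± 0.18. The 3 libraries thus lay within the Fcgr2b-/- range for both genes, and iR2ko_65 lay within the WT range. Il6ra had 10.7, 14.8 and 11.7 CPM, and 6.25 CPM in iR2ko_65. Cx3cl1 had 140.1, 150.2 and 142 CPM, and 69.6 CPM in iR2ko_65, and changed by -0.62 ± 0.25 against Fcgr2b-/- (limma adjusted p = 0.0569) or by -0.36 ± 0.21 without it. No change of Tnf, Tnfrsf1b, Il6ra or Cx3cl1 between these groups passed with or without that library. Leaving out another library did bring Cx3cl1 past the threshold, at -0.73 without iR2ko_370 (adjusted p = 0.0438) and -0.85 without FcR2bko_594 (adjusted p = 0.00741), and Il6ra at -0.52 without FcR2bko_594 (adjusted p = 0.0488).

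None of the other 3 genes passed. Mertk had 69.0, 62.1, 59.1 and 64.98 CPM in the double mutants, with a log2 change of 0.31 ± 0.13 against Fcgr2b-/- (limma adjusted p = 0.0554). Median-of-ratios scaling brought it past the threshold (adjusted p = 0.0463), as did leaving out FcR2bko_398 (adjusted p = 0.00808). Notch1 had 27.9, 35.7, 27.8 and 23.8 CPM and changed by -0.35 ± 0.14 (adjusted p = 0.0577), passing with library totals (adjusted p = 0.0464) and without iR2ko_370, FcR2bko_398 or FcR2bko_594 (adjusted p 0.0188 to 0.0434). Kitl had 49.4, 47.4, 40.5 and 66.6 CPM, iR2ko_65 being the highest, and changed by 0.18 ± 0.13 (adjusted p = 0.273).

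Markers of cell types differed between these groups as well. Of the macrophage markers 0 rose and 4 fell in double-mutant against Fcgr2b-/- kidney, Cd14, Cd68 and Itgam among them, with sums of 916 to 9206 CPM in double mutants and 2123 to 5481 CPM in Fcgr2b-/-. Without iR2ko_65 it was 1 that rose and 2 that fell, and the median log2 change was -0.23, against -0.64 with it. Of the 8 T, NK and B cell markers 0 passed with that library and 5 rose without it. Of the 15 tubule markers 8 rose (7 without iR2ko_65), and the keratins Krt8 and Krt18 and the adhesion molecule Epcam fell, with sums of 21829.6 to 26099.7 CPM in double mutants and 11669 to 13737 CPM in Fcgr2b-/-. Their part in the members' values was not tested.

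**Figure D2:**
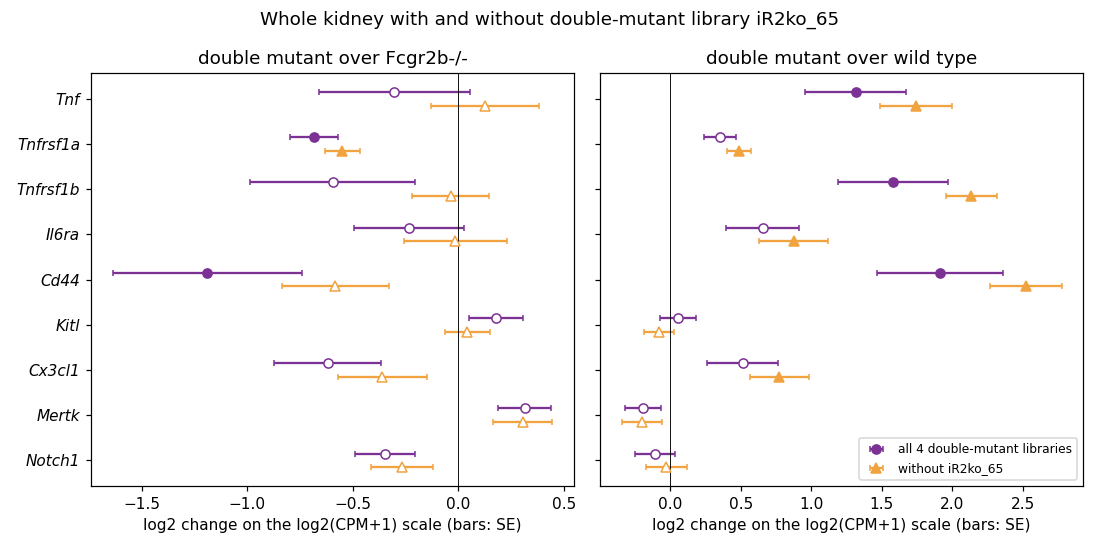
Log2 changes on the log2(CPM+1) scale in whole kidney, double mutant over Fcgr2b-/- (left) and double mutant over WT (right), with all 4 double-mutant libraries and without iR2ko_65. Bars are SE and filled symbols passed at an adjusted p below 0.05; without that library Tnf and Tnfrsf1b lie near 0 against Fcgr2b-/-, and 6 genes pass against WT.

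Against WT kidney, the double mutants had 3 genes called, Tnf, Tnfrsf1b and Cd44, all higher, while 7.29% of all genes were called and 4.52% were higher. The log2 changes were 1.31 ± 0.36 for Tnf (limma adjusted p = 0.0406), 1.58 ± 0.39 for Tnfrsf1b (adjusted p = 0.0285) and 1.91 ± 0.45 for Cd44 (adjusted p = 0.0229). For Tnf, voom gave a log2 change of 2.82, and the authors' deposited table gives 3.16. That table calls the same 3 genes, at an FDR of 0.00872 for Tnf, 0.00869 for Tnfrsf1b and 0.00794 for Cd44. Groups overlapped for all 3 at iR2ko_65. Without that library 6 genes were called higher, adding Tnfrsf1a (0.49 ± 0.08), Il6ra (0.87 ± 0.24) and Cx3cl1 (0.77 ± 0.21), against 8.88% of all genes higher. The calls were lost without iR2ko_348, iR2ko_370 or iR2ko_367, for Tnfrsf1b also without any WT library, for Cd44 without WT_346, WT_388 or WT_550 and for Tnf without any Rhbdf2-/- or WT library. In those fits the adjusted p ran from 0.0515 to 0.128 for Tnf, from 0.0506 to 0.0999 for Tnfrsf1b and from 0.0528 to 0.0828 for Cd44. All 3 calls were also lost with only the 2 groups in the fit (0.0522 to 0.0702) and with voom (0.0598 to 0.130), and that of Tnf with library totals (0.0523). Without FcR2bko_594, Il6ra passed against WT at its unchanged difference (adjusted p = 0.0408). Macrophage markers moved with these genes, 18 of 20 being higher (median 2.18; 20 of 20 and 2.65 without iR2ko_65), with sums of 916 to 9206 CPM in double mutants and 593 to 753 CPM in WT. Higher too were 2 of 5 monocyte and neutrophil markers (3 without iR2ko_65) and 3 of 8 T, NK and B cell markers (5 without it), and their part in the members' values was not tested.

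Tnfrsf1b (1.55 ± 0.39, adjusted p = 0.0451) and Cd44 (1.82 ± 0.45, adjusted p = 0.0428) also passed in double-mutant against Rhbdf2-/- kidney, where 3.5% of all genes were called and 2.32% were higher. That comparison and the one against WT share the double-mutant libraries. Without iR2ko_65 the same 6 genes as against WT were called higher, against 9.07% of all genes. Both calls were lost without iR2ko_348, iR2ko_370, iR2ko_367, iR2ko_334, iR2ko_351, iR2ko_352 or any WT library (adjusted p 0.0561 to 0.136), and that of Tnfrsf1b also without iR2ko_355 (0.0560). Library totals, only the 2 groups in the fit or voom ended both calls as well (0.0573 to 0.105). Without FcR2bko_594, Tnf (adjusted p = 0.0472) and Il6ra (0.0394) passed, and without FcR2bko_398, Tnf did (0.0400). Of the macrophage markers 14 of 20 were higher in double mutants than in Rhbdf2-/- (median 1.77; 19 of 20 and 2.24 without iR2ko_65), with sums of 916 to 9206 CPM in double mutants and 596 to 1036 CPM in Rhbdf2-/-. Of the monocyte and neutrophil markers 2 of 5 were higher (3 without iR2ko_65), and of the T, NK and B cell markers 0 of 8 (5 without it). Their part was not tested.

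With Rhbdf2 lost alone, no change in the 9 genes was detectable at this spread. None passed in Rhbdf2-/- against WT kidney with limma, 0 had an unadjusted p below 0.05, and 0 passed with voom. Of all genes 0% were called and 272 had an unadjusted p below 0.05. Tnf had 0.183, 0.266, 0.556 and 0.435 CPM in Rhbdf2-/- libraries iR2ko_334, iR2ko_351, iR2ko_352 and iR2ko_355, on 5 to 18 reads, around the WT values. Tnfrsf1a had 83.1, 91.2, 84.2 and 90.9 CPM, Tnfrsf1b 10.9, 9.55, 10.0 and 14.3 CPM, and Cd44 2.72, 2.79, 3.81 and 6.37 CPM. All log2 changes in this comparison lay between -0.09 and 0.10, with SEs of 0.11 to 0.45, so the SE limits what could be seen for Cd44, Tnfrsf1b and Tnf.

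The interaction asks whether the change with Rhbdf2 loss differed between the Fcgr2b-/- and WT backgrounds. In kidney it passed for Tnfrsf1a alone of the 9, at -0.77 ± 0.16 (limma adjusted p = 0.00331), against 27.8% of all genes. The Tnfrsf1a interaction was called in each of the 16 fits that left out 1 library, at adjusted p of 0.00904 or less, and in all 7 other settings. Without FcR2bko_398 the interaction of Mertk also passed (0.44, adjusted p = 0.0460).

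**Figure D3:**
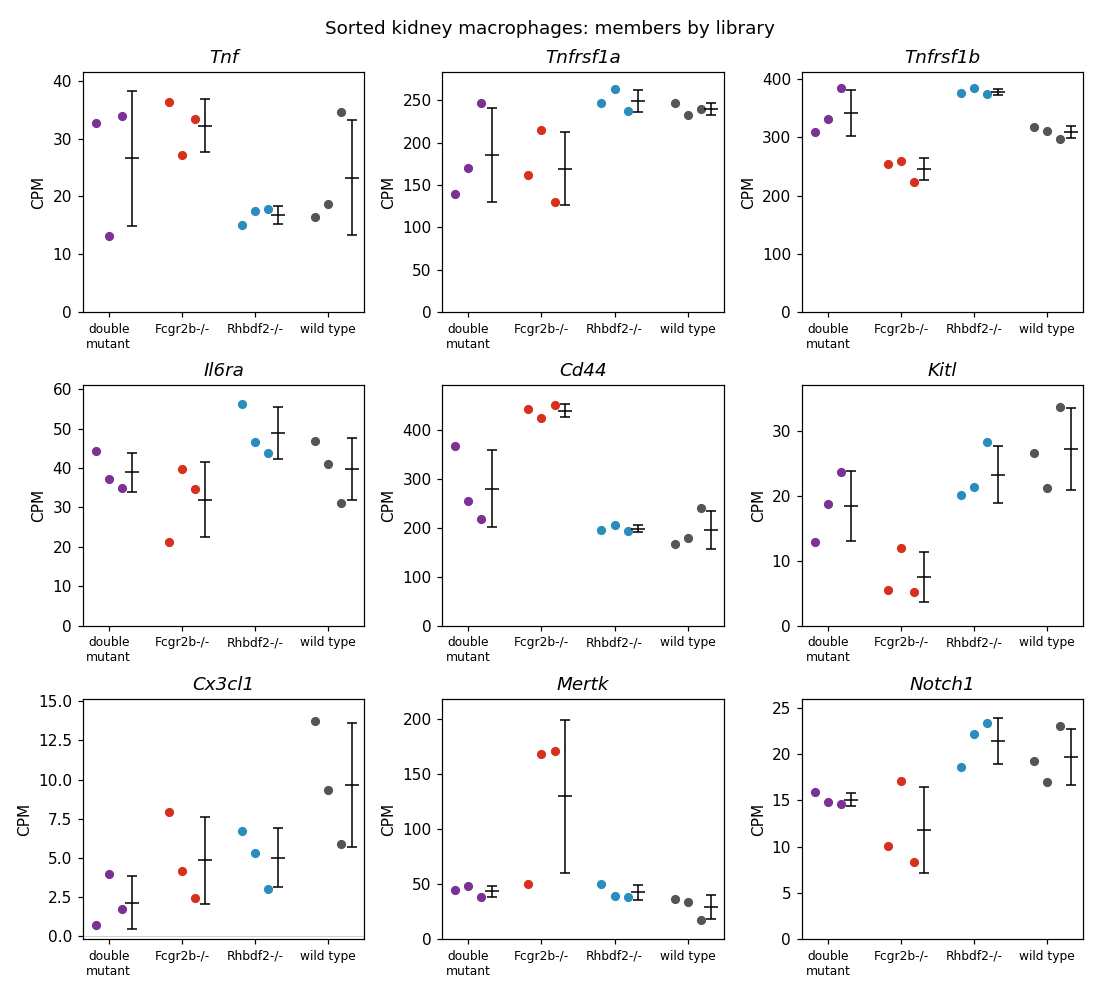
CPM of each of the 9 genes in the 12 sorted macrophage libraries, by genotype. Points are libraries, bars give the mean and SD of each group; all 3 Fcgr2b-/- libraries lie above the WT libraries for Cd44 and Mertk and below them for Tnfrsf1a, Tnfrsf1b and Kitl.

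In macrophages sorted from Fcgr2b-/- kidney, 2 of the 9 genes rose against WT and 4 fell. Cd44 and Mertk were higher, Tnfrsf1a, Tnfrsf1b, Kitl and Notch1 were lower, and Tnf, Il6ra and Cx3cl1 did not pass. Of all 10523 genes, 52.8% were called, 24.2% higher and 28.5% lower. The median log2 change was -0.33 over the 9 genes and -0.09 over all genes.

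Tnf did not pass the test here. It had 36.3, 27.1 and 33.4 CPM in Fcgr2b-/- libraries FcR2bko_847, FcR2bko_595 and FcR2bko_875, against 16.4, 18.7 and 34.6 CPM in WT libraries WTa, WTb and WT2. WT2 lay within the Fcgr2b-/- range, and the log2 change of 0.52 ± 0.33 did not pass (limma adjusted p = 0.203). Without WT2 it passed (0.83, adjusted p = 0.0473).

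Both TNF receptors were lower. Tnfrsf1a had 162, 215 and 129.7 CPM in Fcgr2b-/- libraries against 246, 232 and 239 CPM in WT, a log2 change of -0.53 ± 0.20 (limma adjusted p = 0.0426). Tnfrsf1b had 254, 259.8 and 224 CPM against 318, 311 and 297 CPM, a change of -0.33 ± 0.11 (adjusted p = 0.0208). For neither gene did the groups overlap, and the steps were small. The Tnfrsf1a call was lost in 9 of 12 fits that left out 1 library (iR2ko_823, FcR2bko_847, FcR2bko_875 and any Rhbdf2-/- or WT library, adjusted p 0.0528 to 0.174), and that of Tnfrsf1b without FcR2bko_875, WTa or WTb (adjusted p 0.0594 to 0.0756). Both were also lost with median-of-ratios scaling, at adjusted p of 0.0693 for Tnfrsf1a and 0.0556 for Tnfrsf1b, and that of Tnfrsf1b with only the 2 groups in the fit (0.0502). The authors' deposited table gives Tnfrsf1a an FDR of 0.0634 here.

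Cd44 had 444, 425 and 451 CPM in Fcgr2b-/- macrophages against 167, 180.1 and 241 CPM in WT, a tight and separate group, and rose by 1.18 ± 0.18 on the log2 scale (limma adjusted p = 0.000234). Mertk had 49.8, 168 and 171 CPM in Fcgr2b-/- against 36.8, 33.9 and 16.9 CPM in WT. It rose by 1.99 ± 0.41 (adjusted p = 0.00165), with FcR2bko_847 much closer to WT than the other two. Of the 9 genes, 2 were entirely higher and 3 entirely lower in Fcgr2b-/- macrophages, against 27.0% and 31.5% of all genes.

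Kitl had 5.48, 11.9 and 5.13 CPM in Fcgr2b-/- macrophages against 26.6, 21.2 and 33.7 CPM in WT, and changed by -1.79 ± 0.30 (limma adjusted p = 0.000425). Cx3cl1 had 7.91, 4.16 and 2.48 CPM against 13.8, 9.34 and 5.90 CPM, overlapping, with a change of -0.91 ± 0.45 (adjusted p = 0.105), and it passed without FcR2bko_847 (adjusted p = 0.0397). Tubule markers differed between the same groups. Their summed level was 474 to 1483 CPM in Fcgr2b-/- macrophage libraries and 1856 to 8000 CPM in WT, and 12 of 14 measured tubule markers fell. Between the groups Kitl and these sums were both lower in Fcgr2b-/-. Within the groups their order differed. WT2 had the lowest sum of the WT libraries (1856 CPM) and the highest Kitl. FcR2bko_847 had the highest sum of the Fcgr2b-/- libraries (1483 CPM) with Kitl at 5.48 CPM. Cx3cl1 had the same order as the sums in both groups. So few libraries per group cannot decide on such orders, and the part of the tubule sums in the values of Kitl and Cx3cl1 was not tested.

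Notch1 had 10.0, 17.1 and 8.31 CPM in Fcgr2b-/- macrophages against 19.2, 17.0 and 23.0 CPM in WT, overlapping at FcR2bko_595, and changed by -0.74 ± 0.22 (limma adjusted p = 0.0123). The Notch1 call was lost without FcR2bko_875 (-0.54, adjusted p = 0.0552). Il6ra had 21.3, 39.7 and 34.7 CPM against 46.8, 41.0 and 31.2 CPM, with a change of -0.33 ± 0.22 (adjusted p = 0.217).

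The sorted cells carried all 20 macrophage markers, at sums of 115112 to 144601 CPM in Fcgr2b-/- and 160560 to 231386 CPM in WT. Of the 20, 9 rose and Cd74 and Ptprc fell. The T, NK and B cell markers summed to 120.0 to 140.3 CPM in Fcgr2b-/- and 300.0 to 774 CPM in WT, and 4 of 12 measured fell. The 2 measured endothelial markers, Eng and Pecam1, summed to 8.85 to 32.1 CPM in Fcgr2b-/- and 33.8 to 36.0 CPM in WT, and Eng fell. Their part in the members' values was not tested.

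**Figure D4:**
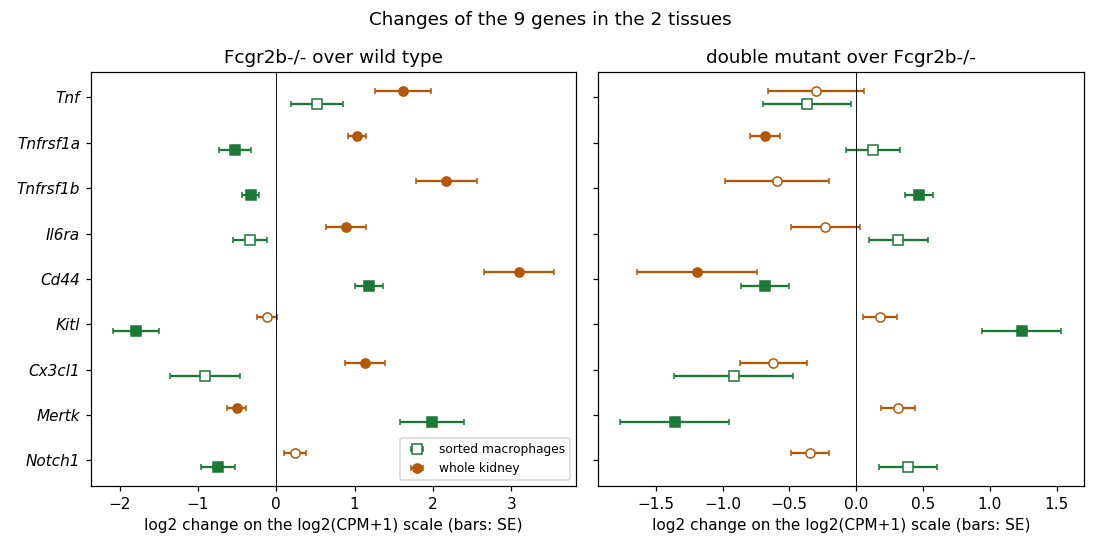
Log2 changes on the log2(CPM+1) scale of the 9 genes in whole kidney (circles) and sorted macrophages (squares), Fcgr2b-/- over WT (left) and double mutant over Fcgr2b-/- (right). Bars are SE and filled symbols passed at an adjusted p below 0.05; Tnfrsf1a, Tnfrsf1b and Mertk lie on opposite sides of 0 in the 2 tissues on the left.

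In double-mutant against Fcgr2b-/- macrophages, Tnfrsf1b and Kitl rose and Cd44 and Mertk fell, so 4 of the 9 genes were called, against 29.6% of all genes, 15.8% higher and 13.8% lower. The median log2 change was 0.12 over the 9 genes and 0.04 over all genes. This comparison and that of Fcgr2b-/- with WT share the Fcgr2b-/- libraries.

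Tnfrsf1b had 308, 332 and 385 CPM in double-mutant libraries iR2ko_579, iR2ko_823 and iR2ko_592, against 254, 259.8 and 224 CPM in Fcgr2b-/-. It rose by 0.47 ± 0.11 (limma adjusted p = 0.00659) without overlap, and in each of 12 fits that left out 1 library. Cd44 had 368, 255 and 217 CPM in double mutants, all below the Fcgr2b-/- values of 444, 425 and 451 CPM, with a change of -0.69 ± 0.18 (adjusted p = 0.0135), which was lost without iR2ko_592 (-0.52, adjusted p = 0.0579).

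Mertk had 44.5, 48.2 and 38.3 CPM in double mutants against 49.8, 168 and 171 CPM in Fcgr2b-/-. The double-mutant values were even and low, close below FcR2bko_847, and the log2 change was -1.36 ± 0.41 (limma adjusted p = 0.0257). The Mertk call was lost without iR2ko_579, iR2ko_592, FcR2bko_595 or FcR2bko_875 (-1.06 to -1.37, adjusted p 0.0538 to 0.107) and with only the 2 groups in the fit (0.0557). Kitl had 12.9, 18.7 and 23.7 CPM in double mutants against 5.48, 11.9 and 5.13 CPM in Fcgr2b-/-, and rose by 1.24 ± 0.30 (adjusted p = 0.00886), holding in each of 12 fits that left out 1 library. The tubule markers were at 604 to 2591 CPM in double-mutant and 474 to 1483 CPM in Fcgr2b-/- macrophages, and Kap alone of 14 rose. The T, NK and B cell markers were at 273 to 533 CPM in double-mutant and 120.0 to 140.3 CPM in Fcgr2b-/- macrophages, and 7 of 12 rose. Both measured endothelial markers, Eng and Pecam1, rose, with sums of 65.1 to 103 CPM in double-mutant and 8.85 to 32.1 CPM in Fcgr2b-/- macrophages. The macrophage markers summed to 184550.0 to 244522 CPM in double-mutant and 115112 to 144601 CPM in Fcgr2b-/- macrophages. Gene by gene, though, only 4 of the 20 rose and 3 fell, with a median log2 change of 0.07. Their part in the members' values was not tested.

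Tnf had 32.8, 13.2 and 33.9 CPM in the double mutants, with iR2ko_823 the lowest of the 12 macrophage libraries and the other two at the Fcgr2b-/- level. Its log2 change was -0.37 ± 0.33 (limma adjusted p = 0.442). Tnfrsf1a had 139, 170.4 and 246 CPM (0.12 ± 0.20, adjusted p = 0.694), Il6ra 44.4, 37.3 and 35.0 CPM (0.32 ± 0.22, adjusted p = 0.304) and Notch1 15.9, 14.8 and 14.6 CPM (0.39 ± 0.22, adjusted p = 0.202). Without FcR2bko_595 the change of Notch1 was 0.66 and passed (adjusted p = 0.0195). Cx3cl1 had 0.717, 3.98 and 1.78 CPM, on 23 to 122 reads, and changed by -0.92 ± 0.45 against Fcgr2b-/- (adjusted p = 0.145).

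Set against WT macrophages, Cx3cl1 was the 1 gene called in double mutants, with a log2 change of -1.82 ± 0.45 (limma adjusted p = 0.0193), while 18.5% of all genes were called. All 3 double-mutant libraries lay below the 5.90 CPM of WT2, the lowest WT library, and the call was lost without iR2ko_579, WTa or WTb (-1.45 to -1.81, adjusted p 0.0753 to 0.0863) and with only the 2 groups in the fit (adjusted p = 0.0509). Cd44 passed without iR2ko_592 (0.66, adjusted p = 0.0280) or WT2 (0.65, adjusted p = 0.0180), and Tnfrsf1a without iR2ko_592 (-0.63, adjusted p = 0.0356). Tubule markers summed to 604 to 2591 CPM in double-mutant and 1856 to 8000 CPM in WT macrophages, and 6 of 14 fell. Among the double mutants iR2ko_823 had both the highest sum (2591 CPM) and the highest Cx3cl1 (3.98 CPM). The lowest sum was that of iR2ko_592 (604 CPM), and the lowest Cx3cl1 (0.717 CPM) that of iR2ko_579, whose sum was 722 CPM. The part of the tubule sums in the Cx3cl1 values was not tested.

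No member passed in double-mutant against Rhbdf2-/- macrophages, where 18.2% of all genes were called. By limma 4 of the 9 had an unadjusted p below 0.05 there, as did 3688 of all 10523 genes. Voom called 0 of the 9. Without iR2ko_592, Cd44 (0.63, adjusted p = 0.0364) and Tnfrsf1a (-0.69, adjusted p = 0.0286) passed, and without iR2ko_823 Tnf did (0.95, adjusted p = 0.0393).

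Rhbdf2-/- macrophages had no member called against WT by limma or voom, and 0.019% of all genes were called by limma. Of all 10523 genes 339 had an unadjusted p below 0.05 by limma, and of the members 1 did. That gene was Tnfrsf1b, with 376, 384 and 375 CPM in Rhbdf2-/- libraries iR2ko_KOa, iR2ko_KOb and iR2ko_KO3, all above the WT values of 318, 311 and 297 CPM, and a log2 change of 0.29 ± 0.11. Mertk was likewise entirely higher in Rhbdf2-/- macrophages, with 50.3, 38.8 and 38.4 CPM (0.59 ± 0.41), whereas 6.05% of all genes were entirely higher. Tnf had 15.0, 17.4 and 17.9 CPM in Rhbdf2-/- and overlapped WT.

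The macrophage interaction passed for Kitl (1.45 ± 0.42, limma adjusted p = 0.0437) and Mertk (-1.95 ± 0.58, adjusted p = 0.0474), against 11.9% of all genes. Of the 12 fits that left out 1 library, 2 kept the call of Kitl and 1 kept that of Mertk. Both calls were lost without iR2ko_823, iR2ko_592, FcR2bko_875 or any Rhbdf2-/- or WT library, that of Kitl also without FcR2bko_847, and that of Mertk also without iR2ko_579 or FcR2bko_595. Cd44 passed without iR2ko_579 (-0.93, adjusted p = 0.0168) or WT2 (-0.87, adjusted p = 0.0349). Adjusted p in the fits that lost a call ran from 0.0501 to 0.105 for Kitl and from 0.0513 to 0.110 for Mertk, which was also lost with library totals (0.0606) and voom (0.0625).

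Genes that act with the 9 members were read from lists that leave the members out. All lists used here and below were chosen with earlier results of these data known. Their counts beside the shares of all genes are therefore descriptions and not independent comparisons. In Fcgr2b-/- against WT kidney, 15 of 20 measured ligands, receptors and targets of the members rose and 1 fell, with a median log2 change of 0.73 against -0.01 over all genes, of which 29.5% rose and 30.8% fell. The fractalkine receptor Cx3cr1 averaged 65.3 CPM in Fcgr2b-/- and 8.90 CPM in WT kidney (log2 change 2.46 ± 0.47, limma adjusted p = 0.000449). Cx3cr1 is also among the 20 macrophage markers, all of which rose in this comparison. The part of cell content in the partners' values was not tested in any comparison. Spp1, osteopontin, which binds CD44, rose by 2.09 ± 0.21, and Socs3 and Stat3, which act downstream of interleukin-6 receptors, rose by 3.38 ± 0.26 and 1.32 ± 0.12. Of the MERTK ligands, Pros1 rose by 1.45 ± 0.16 while Gas6 changed by -0.38 ± 0.11 (adjusted p = 0.00577). The KIT receptor gene Kit rose by 0.62 ± 0.14. In the Notch pathway the ligand Jag1 (0.36 ± 0.09), the modifier Lfng (1.55 ± 0.27) and the target Hes1 (0.73 ± 0.13) rose, while Dll4 (-0.31 ± 0.13, adjusted p = 0.0551) and Nrarp (-0.29 ± 0.18, adjusted p = 0.183) did not pass. Il6st, the shared signalling chain gp130, changed by 0.13 ± 0.15 (adjusted p = 0.451).

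In double-mutant against Fcgr2b-/- kidney 10 of these 20 partners fell and 0 rose, with a median of -0.61, and without iR2ko_65 it was 9 and 0 with a median of -0.34. Of all genes 22.8% fell and 22.5% rose, and 20.1% fell and 19.4% rose without iR2ko_65. Those that fell included Spp1, at a mean of 4019 CPM in double-mutant and 12766 CPM in Fcgr2b-/- kidney (-1.68 ± 0.21, limma adjusted p = 3.46e-05), Socs3 (-1.76 ± 0.26), Stat3 (-0.75 ± 0.12) and Pros1 (-0.90 ± 0.16). The Notch ligands Jag1 (-0.41 ± 0.09) and Jag2 (-0.90 ± 0.20), the target Hes1 (-0.57 ± 0.13) and Kit (-0.51 ± 0.14) fell as well. Cx3cr1 changed by -0.79 ± 0.47 and did not pass (adjusted p = 0.187).

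In macrophages 13 partners were measured, and 3 rose and 4 fell in Fcgr2b-/- against WT cells, where 24.2% of all genes rose and 28.5% fell. In Fcgr2b-/- against WT cells Spp1 (3.97 ± 0.54), Jag1 (1.80 ± 0.24) and Socs3 (3.02 ± 0.47) rose, and Axl, a relative of Mertk, (-0.79 ± 0.17), Pros1 (-0.99 ± 0.27), Hes1 (-0.87 ± 0.20) and the Notch transcription factor Rbpj (-0.54 ± 0.18, named after its values were seen) fell. In double-mutant against Fcgr2b-/- cells Spp1 averaged 504 CPM in double mutants and 8360 CPM in Fcgr2b-/- (-4.29 ± 0.54, limma adjusted p = 0.00031). Jag1 (-1.47 ± 0.24) and Socs3 (-1.97 ± 0.47) fell with it, and Axl (0.96 ± 0.17), Pros1 (0.81 ± 0.27) and Hes1 (0.61 ± 0.20) rose. Cx3cr1, high in these cells, averaged 1447 CPM in double mutants, 1546 CPM in Fcgr2b-/- and 1889 CPM in WT, and passed in neither comparison.

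Among 44 measured genes of TNF receptor signalling, 21 rose and 8 fell in Fcgr2b-/- against WT kidney (median log2 change 0.23), while 29.5% of all genes rose and 30.8% fell. They included the NF-kB inhibitor Nfkbia (1.33 ± 0.12), the NF-kB subunit Rela (0.91 ± 0.11), the kinase Map3k8 (1.38 ± 0.16), the transcription factor Jun (means of 78.0 CPM in Fcgr2b-/- and 26.7 CPM in WT) and the ubiquitin ligase Birc2 (0.57 ± 0.07), all higher, and the kinase Mapk14 (-0.59 ± 0.08). Set against Fcgr2b-/-, double-mutant kidney had 6 higher and 14 lower (median -0.08, and -0.04 with 7 and 12 without iR2ko_65), where 22.5% of all genes rose and 22.8% fell, with Jun at -1.25 ± 0.17 and Rela at -0.77 ± 0.11, whereas Mapk9 (0.47 ± 0.06), Cyld (0.40 ± 0.07) and Mapk14 (0.43 ± 0.08) rose. In Fcgr2b-/- against WT macrophages 5 of 42 rose and 14 fell (median -0.05, and 0.02 with median-of-ratios scaling), while 24.2% of all genes rose and 28.5% fell. There the kinase Map3k14 (-1.05 ± 0.10), the ubiquitin ligase component Rnf31 (-1.12 ± 0.14) and Birc2 (-0.72 ± 0.12) fell, and the NF-kB feedback inhibitor Tnfaip3 rose by 1.74 ± 0.26. In double-mutant against Fcgr2b-/- macrophages 14 rose and 2 fell, Tnfaip3 among them (median 0.25), while 15.8% of all genes rose and 13.8% fell. Those that rose included the receptor adaptors Traf1 (1.51 ± 0.24) and Traf2 (0.72 ± 0.12), with Map3k14 at 1.25 ± 0.10.

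The protease Adam17 averaged 66.6 CPM in Fcgr2b-/- and 51.0 CPM in WT kidney (log2 change 0.36 ± 0.10, limma adjusted p = 0.00718), and 397 CPM in Fcgr2b-/- and 218 CPM in WT macrophages (0.86 ± 0.12, adjusted p = 0.000138). Adam10, added after its values were seen, rose by 0.26 ± 0.08 in kidney (adjusted p = 0.0156) and by 0.41 ± 0.14 in macrophages (adjusted p = 0.0289). Among 19 measured sheddases, carriers and inhibitors, 10 rose and 2 (Timp3 and Sppl2a) fell in Fcgr2b-/- against WT kidney, while 29.5% of all genes rose and 30.8% fell. The inhibitors moved apart, with Timp1 higher by 4.13 ± 0.37 and Timp3, which inhibits ADAM17, changed by -1.47 ± 0.16. Timp1 fell by 3.06 on the log2 scale in double-mutant against Fcgr2b-/- kidney, and Adam17 (-0.09 ± 0.10, adjusted p = 0.501) did not pass. In that comparison 2 of the 19 rose and 9 fell, both with and without iR2ko_65, while 22.5% of all genes rose and 22.8% fell. In macrophages 6 of 17 rose and 4 fell in Fcgr2b-/- against WT, where 52.8% of all genes were called, and 3 rose and 1 fell in double mutants against Fcgr2b-/-, where 29.6% were. The iRhom1 gene Rhbdf1 changed by -1.41 ± 0.21 in Fcgr2b-/- against WT macrophages and by 0.63 ± 0.21 in double mutants against Fcgr2b-/-. The macrophage change of Adam17 between double mutants and Fcgr2b-/- was 0.07 ± 0.12 (adjusted p = 0.691).

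Of 53 other measured substrates of these proteases, 27 rose and 8 fell in Fcgr2b-/- against WT kidney (median log2 change 0.50), while 29.5% of all genes rose and 30.8% fell. The tubular growth factor precursor Egf (-2.74 ± 0.24), the coreceptor Kl (-2.03 ± 0.15) and the growth hormone receptor Ghr (-1.60 ± 0.14) fell. Trem2, a lipid receptor of macrophages (3.95 ± 0.36), Hbegf, a ligand of the EGF receptor (1.45 ± 0.17), and Il1r1, the interleukin-1 receptor (1.13 ± 0.12), rose. Against Fcgr2b-/- kidney, 6 of the 53 rose in double mutants and 22 fell (median -0.25, and -0.26 with 7 and 18 without iR2ko_65), where 22.5% of all genes rose and 22.8% fell, with Egf at 2.33 ± 0.24, Kl at 1.47 ± 0.15 and Hbegf at -1.36 ± 0.17. In Fcgr2b-/- against WT macrophages 7 of 40 rose and 16 fell (median -0.31), where 52.8% of all genes were called, with Trem2 at 4.61 ± 0.34 and Lrp1, a scavenger receptor, at 3.01 ± 0.31. Egf fell there by 5.68 on the log2 scale. Tubule markers were lower in the same cells, at 474 to 1483 CPM in Fcgr2b-/- and 1856 to 8000 CPM in WT macrophages. Their part in the values of Egf and the other substrates was not tested. Of the 40, in double-mutant against Fcgr2b-/- macrophages, 15 rose and 4 fell (median 0.12), where 29.6% of all genes were called, the 4 being Trem2 (-2.42 ± 0.34), Lrp1 (-2.22 ± 0.31), Jag1 (-1.47 ± 0.24) and Pvr.

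The genes whose log2(CPM + 1) followed each member most closely were found over the 16 kidney libraries among 10673 genes, and over the 12 macrophage libraries among 8673. These correlations are descriptions, since libraries of 1 genotype share their group difference and, in kidney, their lane. In kidney Tnf ran closest to Ptafr, Nfam1 and Spi1 (Pearson r 0.987, 0.983 and 0.981), and Tnfrsf1b to Plekho2, Cd300a and Csf2rb (0.989, 0.988 and 0.988). Cd44 ran with Dok1, Tlr2 and Fxyd5 (0.993, 0.990 and 0.990), and Tnfrsf1a with Tubb5, Mmp14 and C1qtnf6 (0.986, 0.983 and 0.983). Cx3cl1 followed Itpripl2, Rftn1 and Bgn (0.988, 0.985 and 0.984), and Il6ra followed Nin, Cygb and Axl (0.963, 0.957 and 0.956). Values were lower for Mertk with Usp8, Kif16b and Ror2 (0.946, 0.939 and 0.938), for Notch1 with Abl1, Pkd1 and Ssh1 (0.953, 0.942 and 0.920) and lowest for Kitl with Rbm48, Zkscan1 and Slc17a1 (0.845, 0.839 and 0.824).

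The macrophage lists named here repeat no gene of the kidney lists. Cd44 ran with Lasp1, Lgals1 and Psma2 (Pearson r 0.992, 0.985 and 0.983), and Mertk with Creg1, Bnip3l and Gmppa (0.972, 0.965 and 0.953). Kitl followed Kansl1, Klhl13 and Phactr1 (0.966, 0.961 and 0.959), and Cx3cl1 followed Col18a1 and Epb4.1l3 (0.955 and 0.929). For Tnfrsf1a the closest were Adck4, Nup133 and Dnajc9 (0.971, 0.956 and 0.953), and for Tnfrsf1b Trim25, H2-K2 and Enpp4 (0.945, 0.937 and 0.936). Notch1 followed Terf1, Itga4 and Upf1 (0.941, 0.921 and 0.916), Tnf followed Ftsj3, Gtpbp4 and Tpgs2 (0.907, 0.897 and 0.889) and Il6ra followed Ypel3, Sema6d and Man2b2 (0.901, 0.900 and 0.895).

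In the coordinates of the deposited table, on mm10, Tnf lies on chromosome 17 from 35199380 to 35202007, Tnfrsf1b on chromosome 4 from 145213462 to 145246870, Il6ra on chromosome 3 from 89869323 to 89913162, Cd44 on chromosome 2 from 102811140 to 102901665 and Notch1 on chromosome 2 from 26457902 to 26516663, all on the minus strand. On the plus strand lie Tnfrsf1a (chromosome 6, 125349361 to 125362484), Kitl (chromosome 10, 100015629 to 100100413), Cx3cl1 (chromosome 8, 94772008 to 94782423) and Mertk (chromosome 2, 128698955 to 128802894). Each value counts reads over the whole gene, with 1639 bases of exon for Tnf and 14232 for Notch1, the shortest and the longest of the 9.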

How the data were processed

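Whole kidney RNA and poly(A) RNA of sorted kidney macrophages were sequenced. The authors deposited, per the file headers, log2 CPM for each library, log2 fold changes and FDR (adjusted p-values) of 4 comparisons, exon lengths and gene positions. The headings point to edgeR, and the builds are mm10 and GRCm38 per the submitters' processing notes. The sources used here name no aligner, counter or strand setting. CPM were recovered as antilogs of the deposited log2 values. Values of up to 20 reads came out as whole reads within 0.1 read, so read counts were recovered from the deposited values, for voom and the depths.

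Samples were grouped by genotype label. Double-mutant titles name only iR2ko, and the genotype label, which gives both genes, was followed. limma-trend (3.58.1, R 4.3.3) was fitted per tissue to log2(CPM + 1) over all genes and all 4 genotypes, with 6 comparisons per tissue and Benjamini-Hochberg adjustment over all genes of each, giving 12 families. Alternatives were another pseudocount (0.25), the deposited log2 values, a minimum mean of 1 CPM, median-of-ratios scaling, library totals, voom, robust spread, only the 2 groups compared and leaving out each library. Members and lists were chosen with earlier results of these data known. Named by rule were the members, up to 6 called genes with the smallest p per list, tissue and main comparison, direct partners, and the 3 genes most correlated with each member among those at a mean of 5 CPM or more. Il6 and Hey1 were not analysed here, nor Kit, Dll4 and Nrarp in macrophages. A few genes that the rule names are not reported here. Protein sequences were not used here.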

Additional observations from a re-analysis of the deposited data

Results flagged for a closer look

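In groups of 4 kidney libraries, 4 of 36 member values had 1 library far from the rest by Dixon's criterion, where chance gives about 1 in 20. Double-mutant library iR2ko_65 had Cd44 at 3.70 CPM, against 23.1 CPM in the nearest other library, and Cx3cl1 at 69.6 CPM, against 140.1 CPM in the nearest. Rhbdf2-/- library iR2ko_334 had Il6ra at 6.98 CPM, against 5.82 CPM in the nearest, and Kitl at 54.0 CPM, against 45.1 CPM in the nearest.

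The interaction test of Rhbdf2 loss between the Fcgr2b-/- and WT backgrounds passed for Tnfrsf1a in kidney (log2 difference -0.77). In macrophages it passed for Kitl (1.45) and Mertk (-1.95). Of all genes 27.8% passed in kidney and 11.9% in macrophages. The Tnfrsf1a call held in all 16 fits that left out 1 library. Of 12 such macrophage fits, 2 kept the call of Kitl and 1 kept that of Mertk. Between Fcgr2b-/- and WT, 3 of the 9 genes moved in opposite directions in the 2 tissues without overlap of the groups in either, as did 10.6% of the 9884 genes in both tables. Tnfrsf1a changed by 1.03 in kidney and by -0.53 in macrophages, Tnfrsf1b by 2.17 in kidney and by -0.33 in macrophages, and Mertk by -0.51 in kidney and by 1.99 in macrophages. The difference between tissues was not tested, since the tables were normalized separately. The macrophage calls of Tnfrsf1a and Tnfrsf1b were lost in 9 and 3 of 12 fits that left out 1 library. Those of Tnfrsf1a were without iR2ko_823, FcR2bko_847, FcR2bko_875 or any Rhbdf2-/- or WT library (adjusted p 0.0528 to 0.174), and those of Tnfrsf1b without FcR2bko_875, WTa or WTb (0.0594 to 0.0756).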

How the results depend on the processing

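No paired analysis was possible because the titles share no replicate numbers. No called value of a member reversed. A minimum mean of 1 CPM removed 0 genes, so it tested nothing. In kidney the number of members called in double mutant against Fcgr2b-/- (2) was 1 with the deposited log2 values and 1 with only the 2 groups compared, and 1 to 4 when 1 library was left out. Against Rhbdf2-/- (2) it was 0 with library totals, the 2 groups or voom, and 0 to 6 without 1 library. Against WT (3) it was 0 with the 2 groups or voom, and 0 to 6 without 1 library, and the interaction (1) gave 1 to 2. In macrophages Fcgr2b-/- against WT (6) gave 3 to 6 without 1 library, double mutant against Fcgr2b-/- (4) gave 2 to 4, against Rhbdf2-/- (0) 0 to 2, against WT (1) 0 with the 2 groups and 0 to 3 without 1 library, and the interaction (2) 1 with library totals or voom and 0 to 2 without 1 library. The 7 calls in Fcgr2b-/- against WT kidney held in all 16 such fits. Calls were both lost and gained when 1 library was left out, and the cause of these changes was not tested. Over all genes, the 5578 calls in double mutant against Fcgr2b-/- kidney were 3550 with the 2 groups, and the 431 against Rhbdf2-/- were 139 with library totals and 77 with voom (27 to 1566 without 1 library). The 898 against WT were 575 with library totals and 478 with voom (121 to 1706). In macrophages the 1943 against WT were 599 with the 2 groups (450 to 3007 without 1 library), the 1918 against Rhbdf2-/- were 598 to 2601, the 1255 of the interaction were 517 to 1304, and the 2 of Rhbdf2-/- against WT were 1 with the deposited log2 values, 5 with the 2 groups, 0 with voom and 2 to 8 without 1 library. Of 846 values of single members under other settings 820 kept their call or lack of one, 23 lost and 3 gained it, and of 1512 without 1 library 1387 kept, 95 lost and 30 gained it. Library totals moved the median of all genes by 0.20 in Fcgr2b-/- against WT kidney and by -0.12 in double mutant against Fcgr2b-/- kidney. Depth limits Tnf in WT and Rhbdf2-/- kidney, at 5 to 18 reads.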
